A study of Homo sapiens with 40 samples.

Results

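Fluvastatin at 2 µM was compared with its solvent after 24 h in MDA-MB-231, an established human triple-negative breast cancer cell line with a mesenchymal look that is widely used as a model of spread to bone. The comparison used 8 of the 40 arrays of the series, taken by their titles: 4 arrays of cells given 2 µM fluvastatin for 24 h and 4 arrays of mock-treated control cells of the same 24 h, all of lot I. Arrays with the same replicate number were paired, since the design text says that pairing was meant to remove the day of measurement. Cells of lot I given 2 µM fluvastatin for 12 h, with control cells of that time, and cells given 30 µM zoledronate for 24 h served only to show where the 24 h fluvastatin response differed, with 4 arrays each. All groups were the same line in the same medium with 10% serum, control cells received the solvent, and the labels name no genetic change. The doses were the IC50 of each agent after 72 h per the design text, and each group had 4 independent replicates.

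Statins such as fluvastatin block the mevalonate pathway near its start. It supplies cholesterol and also the farnesyl and geranylgeranyl chains that anchor small GTPases such as Ras and Rab proteins to membranes. When sterols in the endoplasmic reticulum fall, the SREBP transcription factors are released and switch on genes of sterol synthesis and uptake. When prenylation is blocked, actin fibres loosen, and the coactivators YAP and TAZ leave the nucleus. Zoledronate, a bisphosphonate, blocks farnesyl diphosphate synthase further down the same pathway.

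Each array gave a log2 signal for 18417 named genes, and the median signal over all probe sets of the 8 arrays lay between 6.21 and 6.32. A level below is such a log2 signal, and a difference is fluvastatin minus control on the log2 scale, so that 1 is a doubling. Differences are means over n = 4 pairs with the standard error (SE) of a fit of all 40 arrays. The words rose and fell stand for a Benjamini-Hochberg adjusted p under 0.05 by limma, two-sided. Precision is limited by the number of arrays, and no measure of detection goes with these values. Differences in bulk RNA cannot tell fewer cells of one kind from less RNA in each cell. Markers of the line were high in both groups: VIM, an intermediate filament of mesenchymal cells, averaged 12.2 ± 0.11 in fluvastatin cells and 12.2 ± 0.04 in control cells, and CD44, an adhesion receptor, averaged 11.1 ± 0.18 and 10.9 ± 0.10 (SD, n = 4 each). The oestrogen receptor ESR1 (4.95 ± 0.28 in fluvastatin cells and 4.83 ± 0.34 in control cells) and the epithelial cadherin CDH1 (4.76 ± 0.09 and 4.82 ± 0.07) lay under the lower quartile of all genes, 5.37. Keratins and EPCAM were not low: KRT18 averaged 11.7 ± 0.11 in fluvastatin cells and 11.7 ± 0.09 in control cells, and EPCAM averaged 8.25 ± 0.45 and 8.13 ± 0.47 (SD, n = 4 each).

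After 24 h, fluvastatin cells held more RNA of AGR2, SPDEF, AKR1C1 and RHOB than control cells, and less RNA of MYC, AXL and DKK1. Gene lists changed in part: 6 of 10 sterol enzymes, 17 of 36 interferon-stimulated genes, 10 of 20 integrin and laminin subunits, 11 of 23 genes of low oxygen and 8 of 24 secretory genes rose, and 16 of 24 YAP and TAZ targets, 14 of 25 MYC and ribosome genes and 7 of 30 DNA replication genes fell. Without replicate 1 these counts were 1, 3, 3, 2 and 3 risen and 3, 4 and 0 fallen. The lists were chosen with earlier results of these data known, so that their shares are no independent support. Of 18417 genes, 1236 rose (6.71%) and 694 fell (3.77%), 1930 in all (10.5%). Most changes were small: the median size was 0.37 among risen and 0.32 among fallen genes, and 194 genes rose by 1.5-fold or more (1.05%) against 49 that fell by as much (0.266%). Among the called genes, 1201 of 1236 were higher in 4 of 4 pairs (17.8% of all genes were), and 663 of 694 were lower (16.3% of all genes). The 2 groups did not overlap for 574 of the 1201 and 323 of the 663. Of all genes, 4.61% were higher without overlap and 3.8% lower. The same arrays gave the calls, so these counts add no separate support. Centring each array on the median of the named genes gave 1003 risen and 1002 fallen genes, so that the split between directions, 64% and 50% higher, depended on the scaling.

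The 4 pairs did not weigh equally. The median difference over the 1236 risen genes was 0.62 in pair 1, 0.24 in pair 2, 0.33 in pair 3 and 0.32 in pair 4, and over the 694 fallen genes it was −0.51, −0.19, −0.30 and −0.27. Pair 1 held the largest of the 4 differences in 84.5% of risen and 78.7% of fallen genes. Without replicate 1 of both groups and of the zoledronate cells at 24 h, 299 genes passed, 297 of them among the 1930. Leaving out a replicate number means these 3 arrays throughout this comparison. Without the fluvastatin array of replicate 1 alone 460 passed, and 531 without the control array alone. With the spread estimated from these 8 arrays alone (3 residual degrees of freedom), 2 genes passed, AKR1C2 and GBP2, while 4127 had an unadjusted p under 0.05. Without the replicate block 663 genes passed, all of them among the 1930. What sets pair 1 apart was not tested. Of 123 named genes that passed, 54 also passed without the block and without each replicate number in turn. In these settings 0 changed direction, which is no test. Leaving out the block keeps the mean difference, and a gene that goes 1 way in 4 of 4 pairs keeps its sign without any 1 pair.

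**Figure D1:**
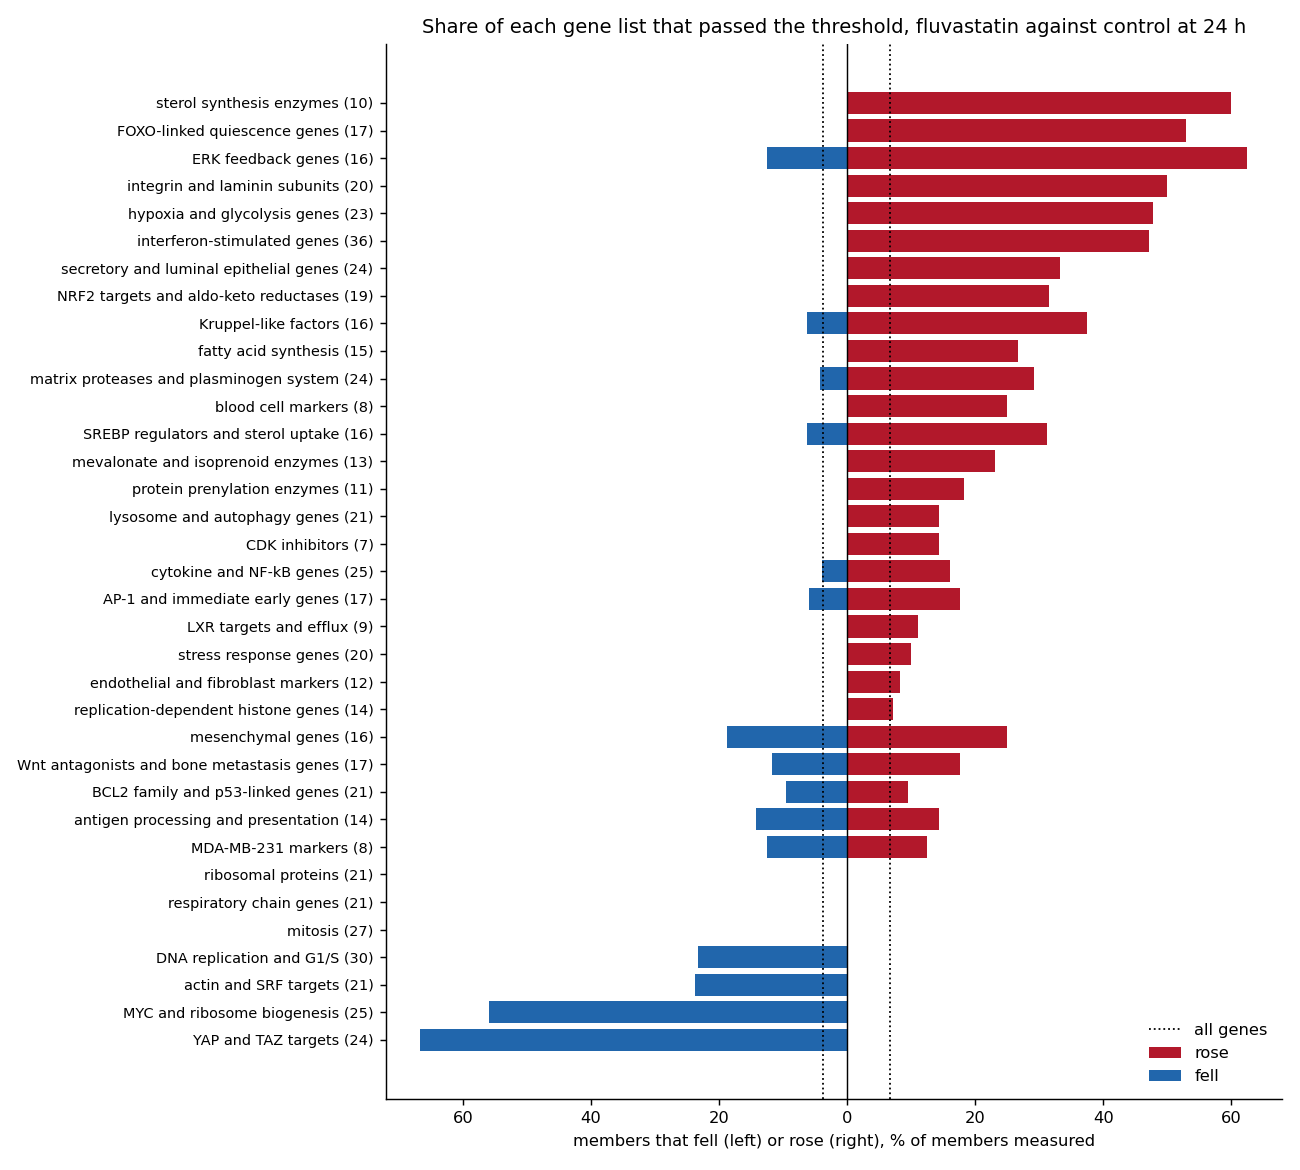
Share of the measured members of 35 gene lists (number measured in brackets) that rose (right) or fell (left) in fluvastatin cells against control cells at 24 h, in % and ordered by rose minus fell, with dotted lines at the shares over all genes (6.71% and 3.77%). Sterol synthesis enzymes and ERK feedback genes have 60% or more risen members, and YAP and TAZ targets have 66.7% fallen members. The members of the lists were chosen with earlier results of these data known.

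The largest rise was that of AGR2, and several other genes of secretory epithelia rose with it. AGR2, a chaperone of the endoplasmic reticulum in mucus-secreting cells, had levels of 7.65, 6.38, 7.49 and 7.28 in fluvastatin cells, against 4.56, 4.96, 6.01 and 5.83 in control cells. The groups did not overlap, and the difference was 1.86 ± 0.28 (adjusted p = 0.000279). SPDEF, which drives the secretory programme as a transcription factor, had 9.43, 7.57, 8.05 and 7.93 in fluvastatin cells, against 6.65, 6.58, 6.35 and 6.75 in control cells, where replicate 1 stood highest of the treated arrays (difference 1.66 ± 0.22, adjusted p = 8.39e-05). ELF3, an epithelial transcription factor, had 7.29, 6.15, 6.96 and 7.32 in fluvastatin cells, against 5.80, 5.74, 6.05 and 6.07 in control cells. Its lowest treated array lay above its highest control array, and it rose by 1.01 ± 0.15 (adjusted p = 0.0002). TFF1, a secreted trefoil peptide, rose by 0.74 ± 0.15, with 8.15, 8.03, 8.14 and 8.09 in fluvastatin cells, against 6.65, 7.81, 7.50 and 7.48 in control cells. Of 24 secretory and luminal genes, 8 rose and 0 fell, and the median difference was 0.11, beside −0.0088 over all genes. The other 4 that rose were the trefoil gene TFF3, the keratins KRT8 and KRT19 and the tight junction gene CLDN4, and the groups did not overlap for any of the 8 (of all genes, 4.61% were higher without overlap and 3.8% lower). ESR1, CDH1 and EPCAM were among the 16 that did not pass (adjusted p = 0.66, 0.802 and 0.725). Without replicate 1, 3 of the 24 rose, AGR2, SPDEF and ELF3, and 5 rose without its fluvastatin array alone, 4 without its control array alone and 5 without the block.

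Outside that list, VSIG1, an adhesion protein of epithelia, had 6.82, 5.35, 6.04 and 6.37 in fluvastatin cells, against 4.59, 4.51, 4.99 and 5.16 in control cells, a rise of 1.33 ± 0.17. CST1, a secreted cystatin, rose by 1.44 ± 0.29, but its groups overlapped: it had 10.53, 10.28, 9.10 and 9.15 in fluvastatin cells and 7.47, 9.76, 7.89 and 8.18 in control cells. TCP11L2 (1.72 ± 0.37) and ANKRD22 (1.51 ± 0.28) were also among the 12 largest rises. The calls of CST1 and TCP11L2 were lost without replicate 1.

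Mesenchymal genes moved in both directions. Of 16, 4 rose and 3 fell, with a median of 0.025. FN1, fibronectin, rose by 0.51 ± 0.11, S100A4, a calcium-binding protein of motile cells, by 0.84 ± 0.17, and PRRX1, a homeobox factor, by 0.40 ± 0.07. LOX, the collagen crosslinking enzyme, was the fourth. SNAI2, a repressor of epithelial genes, fell by 0.44 ± 0.10 on the log2 scale, and CDH2, the neural cadherin, and SPARC, a matrix protein, fell too. VIM stood at 0.02 and ZEB1 at 0.15 and did not pass (adjusted p = 0.93 and 0.14). Without replicate 1, 2 of the 16 rose, S100A4 and PRRX1, and 0 fell, as was so without the block, and 0 fell without replicate 3.

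**Figure D2:**
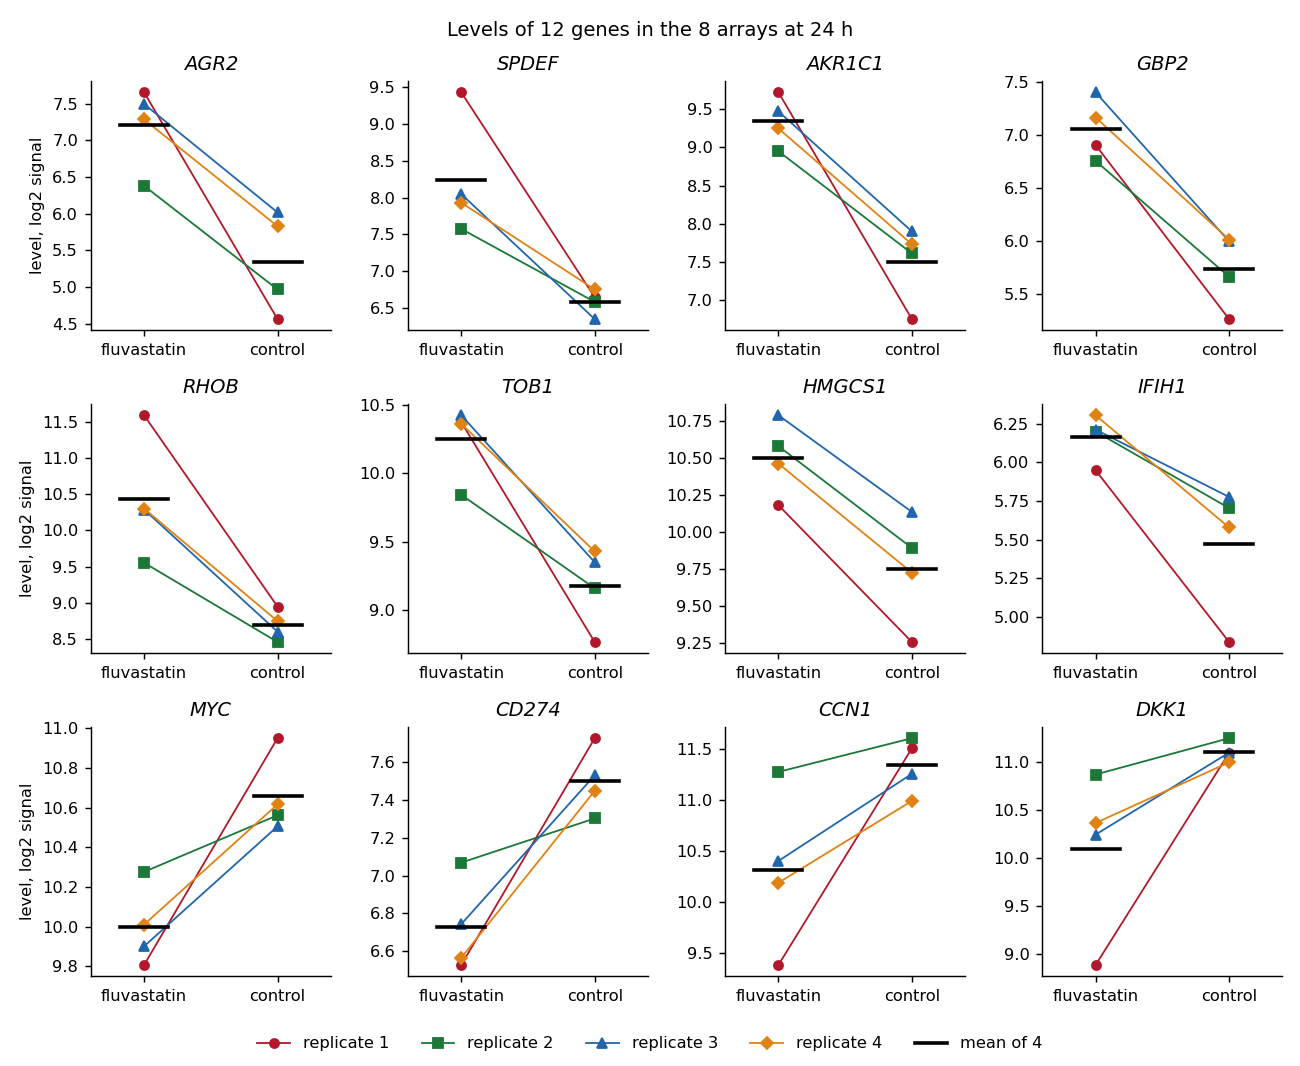
Levels (log2 signal) of 12 genes in fluvastatin cells (left) and control cells (right) at 24 h, with 1 line per replicate pair and black bars for the mean of 4 arrays. All 4 lines slope the same way in each panel, and for AGR2 the fluvastatin arrays lie between 6.38 and 7.65 and the control arrays between 4.56 and 6.01.

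AKR1C1, AKR1C2 and AKR1C3, aldo-keto reductases on chromosome 10 that reduce steroids, prostaglandins and other carbonyls, rose. AKR1C1 had levels of 9.72, 8.95, 9.47 and 9.25 in fluvastatin cells, against 6.75, 7.61, 7.90 and 7.73 in control cells. The groups lay far apart, and the difference was 1.85 ± 0.21 (adjusted p = 1.89e-05). AKR1C2 had 7.96, 7.51, 7.68 and 7.53 in fluvastatin cells, against 6.03, 5.80, 6.12 and 6.27 in control cells (1.62 ± 0.24), and AKR1C3 had 11.19, 10.42, 10.75 and 10.43, against 9.01, 9.37, 9.60 and 9.28 (1.38 ± 0.17). These paralogs are near-identical, so that their probes can share signal, and a second, dimmer probe set of AKR1C1 differed by 0.74. NQO1, a quinone reductase under the oxidative stress factor NRF2, rose by 0.45 ± 0.09, and SLC7A11, the cystine carrier, rose as well. Of 19 NRF2 targets and aldo-keto reductases, 6 rose and 0 fell, with a median of 0.15, and 4 of the 6 belonged to the AKR1C cluster, AKR1C4 being the fourth. HMOX1 (0.03), GCLC (0.11) and GCLM (0.12), which answer oxidative stress in many cells, did not pass (adjusted p = 0.89, 0.41 and 0.54). HSD17B2, which inactivates oestradiol and testosterone, fell by 0.75 ± 0.10, and AOX1, aldehyde oxidase, fell by 0.83 ± 0.14. AOX1 had 7.75, 8.41, 7.96 and 7.83 in fluvastatin cells, against 9.31, 8.80, 8.72 and 8.44 in control cells. Without replicate 1, 4 of the 19 rose and without the block 3, NQO1 and HSD17B2 lost their calls without the block, and the calls of AKR1C1, AKR1C2, AKR1C3 and AOX1 were kept.

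HMGCS1, which makes the precursor that enters the mevalonate pathway, had 10.18, 10.58, 10.79 and 10.46 in fluvastatin cells, against 9.26, 9.89, 10.14 and 9.73 in control cells. The pair differences were close to each other, and HMGCS1 rose by 0.75 ± 0.16 (adjusted p = 0.00514). IDI1, the isomerase of isopentenyl diphosphate, rose by 0.38 ± 0.12 and MVK, mevalonate kinase, by 0.27 ± 0.09, and these were the only others of 13 mevalonate and isoprenoid enzymes that passed. FDPS, the target of zoledronate, had 9.66, 9.92, 9.91 and 9.70 in fluvastatin cells, against 9.68, 9.90, 9.80 and 9.62 in control cells, a difference of 0.05 ± 0.10 (adjusted p = 0.814). GGPS1, which makes the geranylgeranyl chain, stood at 0.25 and did not pass (adjusted p = 0.37). In the sterol branch, 6 of 10 enzymes rose, 0 fell and 4 did not pass, with a median of 0.33. MSMO1, a sterol oxidase, had 9.84, 10.00, 10.11 and 10.36 in fluvastatin cells, against 8.88, 9.37, 9.58 and 9.70 in control cells. Its groups did not overlap, and it rose by 0.69 ± 0.13 (adjusted p = 0.0014). TM7SF2, a sterol reductase, rose by 0.51 ± 0.12, SC5D, a sterol desaturase, by 0.42 ± 0.10 and LSS, which closes the sterol rings, by 0.33 ± 0.07, and SQLE and CYP51A1 made up the 6. Of the 13, 0 passed without replicate 1 or without the block, and 1 without replicate 2, 3 or 4, HMGCS1, since IDI1 and MVK lost their calls without any 1 of the 4. Of the 10 sterol enzymes, 1 passed without replicate 1, MSMO1, 3 without its fluvastatin array alone, and 2 without its control array alone or without the block.

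**Figure D3:**
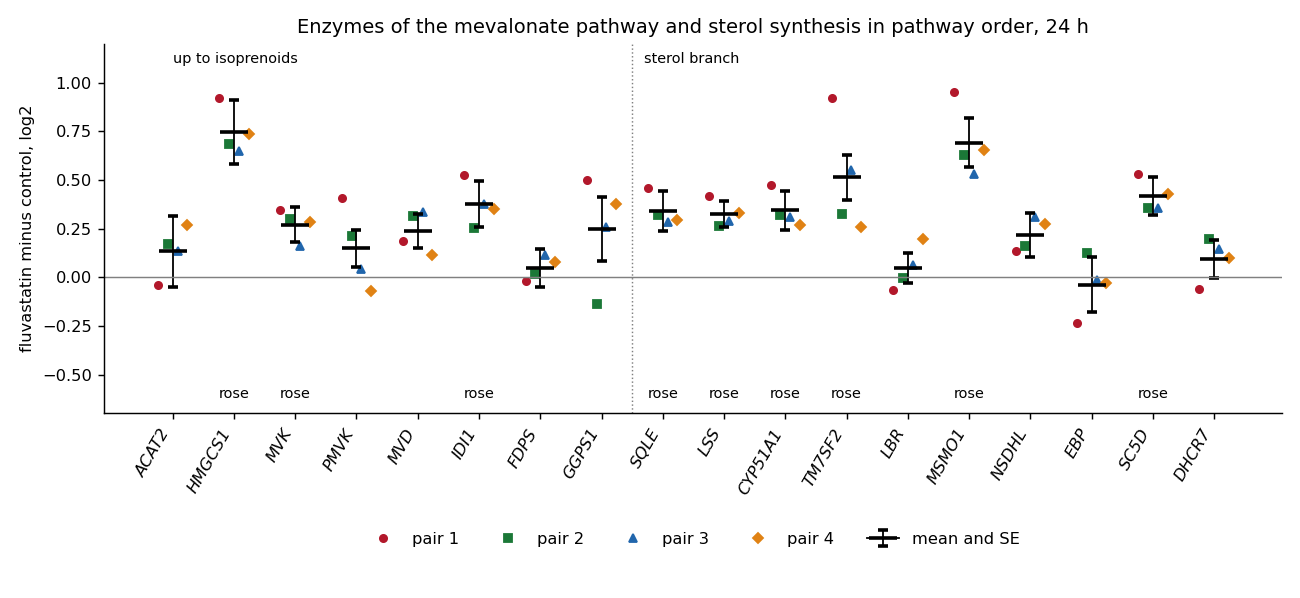
Difference between fluvastatin and control cells at 24 h (log2) for enzymes in the order of the pathway, with coloured points for the 4 replicate pairs and black bars for their mean with the SE of the fit; genes that passed are marked rose. HMGCS1 (0.75 ± 0.16) and MSMO1 (0.69 ± 0.13) stand highest, and FDPS stands at 0.05 ± 0.10.

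Among 16 regulators of SREBP and of sterol uptake, 5 rose and 1 fell, with a median of 0.11. STARD4, a carrier of cholesterol in the cytosol, had 9.64, 9.60, 9.99 and 9.87 in fluvastatin cells, against 8.93, 9.29, 9.55 and 9.43 in control cells (0.48 ± 0.08, adjusted p = 0.00104). INSIG1, which holds SREBP in the endoplasmic reticulum, rose by 0.40 ± 0.10, as did VLDLR, a lipoprotein receptor, by 0.74 ± 0.17. VLDLR had 7.88, 6.30, 6.96 and 7.17 in fluvastatin cells, against 6.40, 6.13, 6.20 and 6.62 in control cells, so that replicate 1 carried much of its rise. INSIG2 and LPIN1 also rose. SCARB1, which takes up cholesterol from high-density lipoprotein, fell by 0.32 ± 0.08, and the genes of the factors themselves, SREBF1 (0.14) and SREBF2 (0.22), did not pass (adjusted p = 0.19 and 0.06). Of 15 genes of fatty acid synthesis 4 rose: ACSS2, which makes acetyl-CoA from acetate, by 0.71 ± 0.09, ME1, malic enzyme, by 0.40 ± 0.07, the elongase ELOVL6 by 0.36 ± 0.07 and the desaturase SCD by 0.22 ± 0.07. ACSS2 had 9.30, 9.19, 9.26 and 9.40 in fluvastatin cells, against 8.38, 8.64, 8.63 and 8.64 in control cells, with no overlap. Fatty acid synthase itself, FASN, stood at −0.08 (adjusted p = 0.608). Of 9 genes of the sterol sensor LXR only NR1H3, which encodes LXR alpha, rose (0.46 ± 0.07), 11.1% of the list beside 6.71% of all genes. Without replicate 1, 1 of the 16 sterol regulators rose, STARD4, and 0 fell, and 0 rose without the block and 3 without replicate 4. SCARB1 also lost its call without replicate 3. Of the 15 fatty acid genes 2 rose without replicate 1, ACSS2 and ME1. SCD lost its call without any 1 of the 4 replicates, and SCD and STARD4 without the block.

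SREBPs bind short sterol response elements, often beside CCAAT boxes bound by NF-Y, and interferon-activated factors bind elements with repeated GAAA. The promoters of HMGCS1 and MSMO1, the enzymes of the mevalonate and sterol lists with the largest rises, are shown with that of RHOB, each as the 250 bases before the annotated start in RefSeq (GRCh38.p14), 5′ to 3′ along the gene. Capitals mark CCAAT or its complement ATTGG. HMGCS1 lies at chr5:43313413-43313662 (minus strand), MSMO1 at chr4:165327419-165327668 (plus strand) and RHOB at chr2:20446824-20447073 (plus strand).
HMGCS1: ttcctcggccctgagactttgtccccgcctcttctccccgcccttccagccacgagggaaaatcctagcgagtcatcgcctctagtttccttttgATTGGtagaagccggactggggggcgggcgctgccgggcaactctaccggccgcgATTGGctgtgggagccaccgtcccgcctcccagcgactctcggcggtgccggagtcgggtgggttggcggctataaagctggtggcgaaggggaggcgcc
MSMO1: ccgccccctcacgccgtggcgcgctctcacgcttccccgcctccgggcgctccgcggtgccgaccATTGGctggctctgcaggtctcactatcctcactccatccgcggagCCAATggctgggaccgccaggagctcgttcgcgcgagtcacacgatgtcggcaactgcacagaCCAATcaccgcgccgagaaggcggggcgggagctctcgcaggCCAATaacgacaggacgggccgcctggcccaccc
RHOB: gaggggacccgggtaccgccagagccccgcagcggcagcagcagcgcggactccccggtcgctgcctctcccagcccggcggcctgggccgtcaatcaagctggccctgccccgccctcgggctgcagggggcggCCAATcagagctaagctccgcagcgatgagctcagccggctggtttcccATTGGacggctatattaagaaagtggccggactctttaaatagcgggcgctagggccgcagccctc
MSMO1 held 4 such boxes, HMGCS1 2 and RHOB 2. On both strands, CCAAT lay in 61.5% of 13 promoters of sterol-list members that rose (8), in 43.5% of 23 promoters of members that did not rise (10), in 34.3% of 997 promoters of all risen genes and in 33% of 27305 promoters in the table. The letters TCACNCCAC, 1 form of the sterol response element, lay in 0 of the 13, in 1 of the 23 (SREBF2) and in 0.875% of all promoters. Matches describe these windows only and are not sites shown to be bound.

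RHOB, a small GTPase whose RNA is known to climb when prenylation is blocked, had levels of 11.59, 9.56, 10.29 and 10.30 in fluvastatin cells, against 8.95, 8.46, 8.61 and 8.75 in control cells. Every treated array lay above every control array, with replicate 1 highest, and RHOB rose by 1.74 ± 0.21 (adjusted p = 3.97e-05). CDC42, a small GTPase of cell polarity, rose by 0.39 ± 0.10, RHOC by 0.33 ± 0.09 and RHOA by 0.23 ± 0.06. RHOC had 10.79, 10.17, 10.17 and 10.18 in fluvastatin cells, against 10.15, 10.01, 9.91 and 9.92 in control cells, where replicate 1 stands apart. RHOB kept its call without replicate 1, CDC42, RHOC and RHOA did not, and RHOA also lost its call without replicate 4. Among 11 prenylation enzymes and chaperones 2 rose: PCYOX1, which breaks down prenylcysteines, by 0.35 ± 0.06, and PDE6D, which carries prenylated proteins, by 0.37 ± 0.09. FNTA, the shared subunit of the prenyltransferases, stood at −0.05 and PGGT1B, a subunit that adds geranylgeranyl, at 0.14 (adjusted p = 0.82 and 0.23). PDE6D lost its call without replicate 1 or 4.

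Kruppel-like factors, zinc finger regulators that include statin-induced KLF2 of the vessel wall, changed in 7 of 16 cases. KLF2 had 10.31, 9.25, 9.42 and 9.45 in fluvastatin cells, against 9.31, 8.85, 8.80 and 8.82 in control cells. Only the control array of replicate 1 reached into the treated range, and KLF2 rose by 0.66 ± 0.11 (adjusted p = 0.000871). KLF7 rose by 0.78 ± 0.13, KLF3 by 0.74 ± 0.12 and KLF6 by 0.60 ± 0.10, and KLF9 and KLF13 rose too, while KLF15 fell. KLF4 (0.19) and KLF5 (−0.17) did not pass (adjusted p = 0.34 and 0.23). Without replicate 1, 5 of the 16 rose and 0 fell, the named KLF2, KLF3, KLF6 and KLF7 among them.

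Among the lists, whose members were chosen with earlier results of these data known, YAP and TAZ targets had the largest share of fallen members. Of 24, 16 fell, 0 rose and 8 did not pass, with a median of −0.39. CCN1, a matrix protein and classical target, had 9.38, 11.28, 10.40 and 10.19 in fluvastatin cells, against 11.51, 11.61, 11.26 and 10.99 in control cells. The treated array of replicate 2 lay within the control range, and replicate 1 lay lowest. The fall of CCN1 was −1.03 ± 0.24 (adjusted p = 0.00773). CCN2 had 9.77, 10.67, 10.20 and 10.19 in fluvastatin cells, against 11.56, 10.96, 10.88 and 10.74 in control cells, with no overlap (−0.82 ± 0.20). AMOTL2, an angiomotin that itself restrains YAP, had 6.92, 8.48, 7.81 and 8.31 in fluvastatin cells, against 8.53, 8.81, 8.61 and 8.91 in control cells (−0.83 ± 0.17). AXL, a receptor kinase of invasive cells, had 10.85, 11.17, 10.53 and 10.998, against 11.63, 11.34, 11.08 and 11.49, and each treated array lay below the control of its own number (−0.50 ± 0.08, adjusted p = 0.000288). FJX1 (−0.63 ± 0.11), CRIM1 (−0.47 ± 0.09) and AJUBA, a LIM protein of cell junctions (−0.68 ± 0.13), also fell. The pair medians of the list were −0.74, −0.18, −0.39 and −0.27 for replicates 1 to 4. Without replicate 1, 3 of the 24 fell, AXL, FJX1 and AJUBA, and 5 fell without the fluvastatin or without the control array of replicate 1 alone. Of 21 actin and SRF targets, 5 fell and 0 rose, with a median of −0.04: CNN2, a calponin (−0.37 ± 0.08), FHL2 (−0.31 ± 0.08), TAGLN, transgelin (−0.51 ± 0.13), SRF itself (−0.27 ± 0.07) and CALD1, caldesmon. ACTB (−0.03), VCL (0.17) and MYH9 (0.03) did not pass (adjusted p = 0.75, 0.22 and 0.83), and 0 of the 21 passed without replicate 1, 3 without replicate 3 or 4 and 2 without the block.

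DKK1, a secreted Wnt antagonist, had 8.89, 10.87, 10.24 and 10.37 in fluvastatin cells, against 11.09, 11.25, 11.10 and 10.99 in control cells. Replicate 1 lay lowest by over 1, and the difference of DKK1 was −1.01 ± 0.21 (adjusted p = 0.0035). FST, follistatin, which traps activins, had 9.25, 10.92, 10.24 and 10.21, against 11.03, 11.27, 11.11 and 10.94 in control cells (−0.93 ± 0.21). HHIP, a decoy receptor for hedgehog proteins, fell by 0.91 ± 0.18 on the log2 scale, ST6GALNAC5, a sialyltransferase, by 0.92 ± 0.16, LPAR1, a receptor for lysophosphatidic acid, by 0.81 ± 0.14, IL7R by 0.80 ± 0.14 and the ubiquitin ligase MARCHF4 by 0.78 ± 0.12. Of 17 Wnt antagonists and bone metastasis genes, 3 rose and 2 fell: SPP1, osteopontin, rose by 0.85 ± 0.17, JAG1, a Notch ligand, by 0.42 ± 0.10 and BMP2 by 0.32 ± 0.07, and BMP6 fell beside DKK1. SPP1 had 9.50, 8.08, 9.75 and 9.88 in fluvastatin cells and 7.92, 7.56, 9.23 and 9.12 in control cells, where the differences between days exceeded the rise. CXCR4 (−0.13), IL11 (−0.14) and RUNX2 (0.23) did not pass (adjusted p = 0.61, 0.70 and 0.11). Without replicate 1, 0 of the 17 rose and 1 fell, DKK1, and FST lost its call. The difference of DKK1 was then −0.62, and its adjusted p by limma rounds to 0.05, at the threshold. Without the block 0 rose and 1 fell, BMP6 lost its call without replicate 3 or 4, and IL7R without the block.

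Of 36 interferon-stimulated genes 17 rose, 19 did not pass and 0 fell, with a median of 0.29 and pair medians of 0.47, 0.21, 0.27 and 0.25 for replicates 1 to 4. IFIH1, a sensor of viral RNA, had 5.95, 6.20, 6.21 and 6.30 in fluvastatin cells, against 4.84, 5.70, 5.78 and 5.58 in control cells, with no overlap (0.69 ± 0.12, adjusted p = 0.000789). SAMD9L, an antiviral factor, rose by 0.68 ± 0.10, IFIT2 by 0.57 ± 0.11 and OAS2, an enzyme that arms RNase L, by 0.44 ± 0.09. IFIT2 had 7.004, 8.45, 8.96 and 8.76 in fluvastatin cells and 6.19, 8.08, 8.49 and 8.13 in control cells, so that replicate 1 was low in both groups. Classical members stayed near the control: ISG15 stood at 0.06, IFI6 at 0.07, MX1 at 0.14, IFI27 at −0.01 and USP18 at −0.19 (adjusted p = 0.813, 0.735, 0.348, 0.95 and 0.286). GBP2, an interferon-induced GTPase that was not on the list, had 6.91, 6.76, 7.41 and 7.17 in fluvastatin cells, against 5.26, 5.66, 5.997 and 6.01 in control cells. Its groups lay apart, it rose by 1.33 ± 0.15 (adjusted p = 1.89e-05), and a second probe set differed by 1.18. Without replicate 1, 3 of the 36 rose, IFIH1 and SAMD9L among them, 6 rose without its fluvastatin or its control array alone, and 5 rose without the block. GBP2 kept its call in both.

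The promoter of IFIH1 is shown as an interferon-stimulated gene that rose, at chr2:162318685-162318934 (minus strand, 250 bases before the RefSeq start), with capitals for GAAANNGAAA or its complement.
IFIH1: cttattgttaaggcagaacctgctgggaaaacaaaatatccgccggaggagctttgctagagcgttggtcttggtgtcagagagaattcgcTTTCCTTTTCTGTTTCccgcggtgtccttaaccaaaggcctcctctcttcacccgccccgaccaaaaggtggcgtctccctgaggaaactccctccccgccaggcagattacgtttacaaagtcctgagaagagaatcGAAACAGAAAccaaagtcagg
It held 3 matches, 2 of which overlap. These letters lay on either strand in 57.1% of 14 promoters of the interferon-stimulated genes that rose (8), in 56.2% of 16 promoters of those that did not (9) and in 3.07% of all promoters.

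In antigen presentation 2 of 14 genes rose and 2 fell. B2M, the shared chain of class I molecules, stood at 0.23 ± 0.07 and ERAP2, a peptide trimmer, at 0.39 ± 0.11, and TAP2, a peptide carrier, fell by 0.35 ± 0.08. CD274, the checkpoint ligand PD-L1, had 6.53, 7.07, 6.74 and 6.57 in fluvastatin cells, against 7.73, 7.30, 7.53 and 7.45 in control cells. No treated array reached the control range, and the difference of CD274 was −0.78 ± 0.13 (adjusted p = 0.000824). Of these 4, CD274 kept its call without replicate 1, and B2M and ERAP2 also lost theirs without replicate 3 or 4. The list of 25 genes of cytokines and NF-kB had 4 risen members, 1 fallen and a median of 0.08. CSF1, a macrophage growth factor, rose by 0.82 ± 0.15, PTGS2, the inducible cyclooxygenase, by 0.95 ± 0.21, NFKBIA by 0.36 ± 0.08 and CSF3 by 0.35 ± 0.08, and TNFAIP3 fell. IL6 (0.24) and CXCL8 (−0.00) did not pass (adjusted p = 0.19 and 0.99). Without replicate 1, 2 of the 25 rose, CSF1 and NFKBIA, and without the block 1. NFKBIA lost its call without replicate 3 or without the block, and TNFAIP3 lost its call without any 1 of the 4 replicates.

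MYC, a transcription factor that drives growth, had 9.81, 10.28, 9.90 and 10.01 in fluvastatin cells, against 10.95, 10.56, 10.51 and 10.62 in control cells. All treated arrays lay below all control arrays, and the difference of MYC was −0.66 ± 0.10 (adjusted p = 0.000365). Of 25 genes of the list 14 fell, 0 rose and 11 did not pass, with a median of −0.27. ODC1, the first enzyme of polyamine synthesis and a classical MYC target, had 11.74, 11.58, 11.50 and 11.50, against 12.17, 11.88, 11.87 and 11.85 in control cells (−0.36 ± 0.05). BOP1 (−0.47 ± 0.08) and RRP9 (−0.44 ± 0.08), which process ribosomal RNA, fell too, and NCL and NPM1, abundant nucleolar proteins, stood at −0.09 and −0.06 (adjusted p = 0.41 and 0.55). By limma 0 of 21 ribosomal protein genes passed (median −0.06) and 1 had an unadjusted p under 0.05, and 0 of 21 respiratory chain genes passed (median 0.03) and 5 had one. Without replicate 1, 4 of the 25 fell, MYC, ODC1, BOP1 and RRP9, 5 fell without its fluvastatin array and 6 without its control array alone, and 9 fell without replicate 3.

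Genes of DNA replication and G1/S fell in 7 of 30 cases, 0 rose, and the median was −0.28. MCM2, a subunit of the replicative helicase, had 9.48, 10.02, 9.83 and 9.78 in fluvastatin cells, against 10.35, 10.25, 10.18 and 10.09 in control cells (−0.44 ± 0.10). MCM7 (−0.27 ± 0.07), MCM10 (−0.47 ± 0.15) and CDT1, a licensing factor (−0.46 ± 0.12), fell too, as did CDC25A, MCM3 and UNG. CCND1 (−0.12), E2F1 (−0.25) and PCNA (−0.16) did not pass (adjusted p = 0.23, 0.10 and 0.39). The pair medians were −0.60, −0.09, −0.21 and −0.20 for replicates 1 to 4, and without replicate 1, or without either of its arrays alone, 0 of the 30 fell. Without replicate 3 or 4, 2 fell, with only the fluvastatin array of replicate 2 left out 12, and without the block 3. Of 27 genes of mitosis 0 passed by limma and 0 had an unadjusted p under 0.05, with a median of −0.02, and CCNB1, the mitotic cyclin, stood at 0.05. Of 7 CDK inhibitors 1 rose (14.3%, beside 6.71% of all genes), CDKN1A, p21 (0.35 ± 0.10), a call lost without any 1 of the 4 replicates. Among 14 replication-dependent histone genes, whose near-identical copies can share signal, 1 rose (7.14%, near the 6.71% of all genes), H2BC12 by 0.38 ± 0.10. The list median was −0.17. H2BC12 lost its call without replicate 1 or replicate 4.

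Of 17 genes linked to FOXO factors and to rest from the cell cycle, 9 rose, 0 fell and 8 did not pass, with a median of 0.35. TSC22D3, a leucine zipper protein also induced by glucocorticoids, had 8.72, 7.84, 8.26 and 8.03 in fluvastatin cells, against 6.95, 7.20, 6.94 and 7.05 in control cells (1.18 ± 0.14, adjusted p = 3.29e-05). TOB1, which slows proliferation, had 10.38, 9.84, 10.43 and 10.36, against 8.77, 9.16, 9.35 and 9.43 in control cells (1.07 ± 0.12, adjusted p = 1.64e-05). In both genes the groups lay apart. SESN3, a sestrin, rose by 0.74 ± 0.15 and BCL6 by 0.35 ± 0.07, with CCNG2, KLHL24, FBXO32, BTG1 and PINK1 completing the 9. TXNIP (0.16) and IRS2 (−0.14) did not pass (adjusted p = 0.61 and 0.19). Without replicate 1, 2 of the 17 rose, TSC22D3 and TOB1, and 4 rose without either of its arrays alone or without the block. In the list of BCL2 family and p53-linked genes 9.52% rose and 9.52% fell, beside 6.71% and 3.77% of all genes, and 17 of 21 did not pass. MDM2 (0.16) and BBC3 (−0.13) were among the 17 (adjusted p = 0.36 and 0.62). TP53INP1, a stress-induced protein, rose by 1.21 ± 0.21 and GDF15, a stress cytokine, by 1.19 ± 0.28. The survival gene BCL2 (−0.38 ± 0.09) and the kinase PLK2 (−0.54 ± 0.14) fell. TP53INP1 kept its call without replicate 1, the other 3 did not, and PLK2 also lost it without replicate 3.

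Genes that low oxygen induces rose in 11 of 23 cases with 0 fallen, and their median was 0.28. VEGFA, the vessel growth factor, had 10.12, 9.58, 9.78 and 9.95 in fluvastatin cells, against 8.59, 8.72, 8.97 and 9.35 in control cells, with no overlap (0.95 ± 0.16, adjusted p = 0.000824). NDRG1, a stress gene, had 11.76, 9.32, 10.15 and 10.34, against 9.10, 8.79, 9.16 and 9.41 in control cells, where replicate 1 was highest and replicate 2 lay within the control range (1.28 ± 0.26). BHLHE40, a repressor, rose by 1.16 ± 0.21 and ALDOC, an aldolase, by 0.71 ± 0.14. The glucose carrier SLC2A1 (−0.13), HK2 (−0.10) and LDHA (0.17) did not pass (adjusted p = 0.27, 0.44 and 0.11). The pair medians were 0.70, 0.09, 0.21 and 0.20 for replicates 1 to 4, and without replicate 1, 2 of the 23 rose, VEGFA and BHLHE40, against 4 without either of its arrays alone and 7 without the block. Of 20 stress response genes 2 rose (10%, beside 6.71% of all genes), DDIT4, an inhibitor of mTORC1 (1.26 ± 0.21), and VLDLR. DDIT3 (−0.17), ATF4 (−0.18) and HSPA5 (0.11) did not pass (adjusted p = 0.64, 0.24 and 0.28). DDIT4 kept its call without replicate 1 but not without the block. Among 21 lysosome and autophagy genes 3 rose: GABARAPL1 (0.38 ± 0.09), WIPI1 (0.36 ± 0.10) and CTSA (0.17 ± 0.05), with a median of 0.12. Without replicate 1, without replicate 3 or without the block 1 of the 21 rose, GABARAPL1 in each case. Its adjusted p by limma without replicate 1 rounds to 0.05, at the threshold. CTSA lost its call without any 1 of the 4 replicates.

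**Figure D4:**
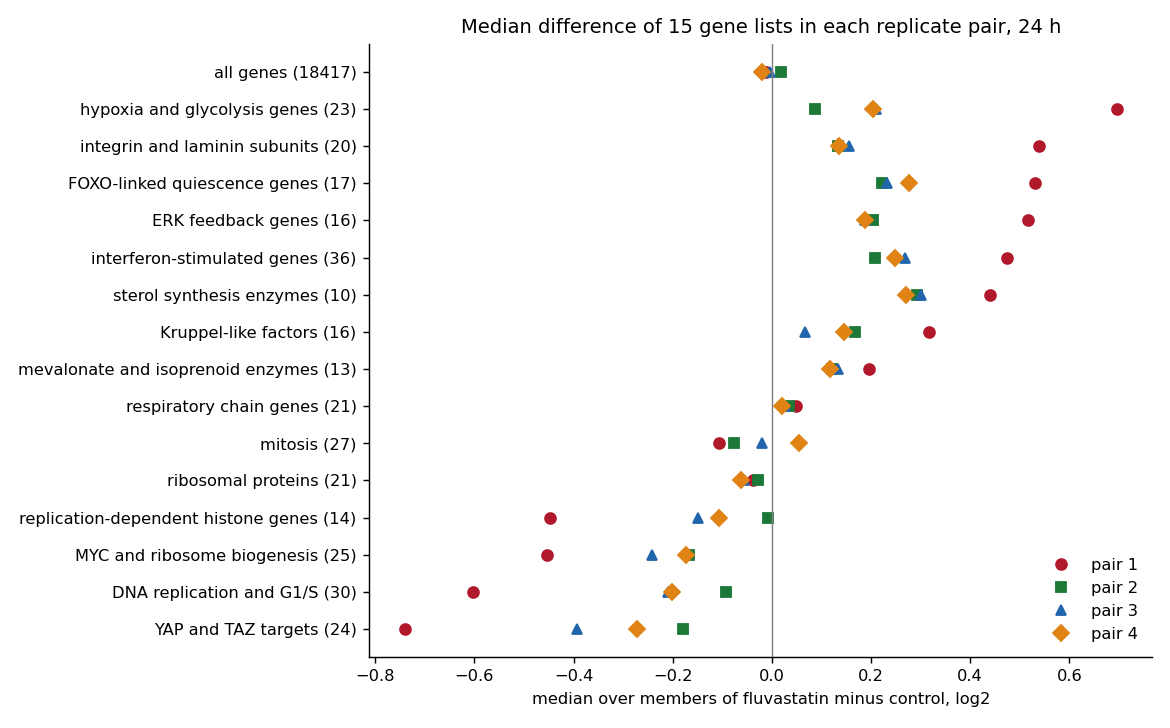
Median difference between fluvastatin and control (log2) over the members of 15 gene lists (number of members in brackets) and over all genes at 24 h, in each of the 4 replicate pairs. All genes lie near 0 in each pair, whereas pair 1 lies furthest out for the YAP and TAZ targets (−0.74) and the hypoxia and glycolysis genes (0.70).

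Of 20 integrin and laminin subunits 10 rose and 0 fell, with a median of 0.23. ITGA10, a collagen receptor, had 7.30, 7.21, 7.48 and 7.45 in fluvastatin cells, against 5.71, 6.35, 6.25 and 6.48 in control cells, with no overlap (1.16 ± 0.20, adjusted p = 0.000824). ITGB4, a laminin receptor, had 8.46, 6.80, 6.69 and 7.14, against 6.02, 6.13, 6.03 and 6.41 in control cells, with replicate 1 highest (1.12 ± 0.21). ITGA2 rose by 0.79 ± 0.14 and the laminin chain LAMA5 by 0.62 ± 0.14, and ITGB1, the commonest partner, stood at 0.12 (adjusted p = 0.34). Of 24 matrix proteases and members of the plasminogen system, 7 rose and 1 fell. CTSD, a lysosomal protease that tumour cells secrete, rose by 0.69 ± 0.09 (adjusted p = 7.41e-05), PLAT, the tissue plasminogen activator, by 0.92 ± 0.16, and the inhibitors TIMP3 and TIMP1 by 0.62 ± 0.12 and 0.55 ± 0.10. MMP13, MMP14 and MMP16 rose and ADAM9 fell, whereas PLAU (−0.11), MMP1 (0.21) and MMP9 (0.11) did not pass (adjusted p = 0.63, 0.10 and 0.58). Without replicate 1, or either of its arrays alone, 3 of the 20 rose, 6 rose without replicate 4 and 5 without the block, and ITGA2, ITGA10 and ITGB4 kept their calls without that replicate. Of the 24, 4 rose without replicate 1, PLAT, CTSD, TIMP1 and TIMP3, and 3 without the block, where TIMP1 lost its call, and ADAM9 lost its call without replicate 1 or 3.

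Of 16 genes that ERK signalling induces as feedback, 10 rose and 2 fell, with a median of 0.28. DUSP4, a phosphatase of ERK, had 10.92, 10.62, 10.76 and 10.71 in fluvastatin cells, against 10.00, 10.38, 10.34 and 10.39 in control cells (0.47 ± 0.08, adjusted p = 0.000914). The inhibitors SPRED1 (0.52 ± 0.10) and SPRY4 (0.48 ± 0.10) and PHLDA1 (0.35 ± 0.07) rose too, as did DUSP5, DUSP6, SPRY1, SPRED2, EPHA4 and the ligand EREG, whereas HBEGF and DUSP7 fell. ETV4 (0.05) and ETV5 (−0.00), other common readouts, did not pass (adjusted p = 0.81 and 0.97). Without replicate 1, 2 of the 16 rose, DUSP4 and SPRED1, and 0 fell, against 3 risen without its fluvastatin array, 4 without its control array and 4 without the block, and 0 fell without replicate 3. Of 17 AP-1 and immediate early genes, IER3 rose by 0.67 ± 0.12, FOSL2 by 0.48 ± 0.11 and JUND by 0.22 ± 0.07, and FOSL1 fell by 0.32 ± 0.08 on the log2 scale. FOS stood at 0.12 and JUN at −0.11 (adjusted p = 0.56 and 0.33). Without replicate 1 or without the block 1 of the 17 rose, IER3 in each case, and 0 fell, nor did FOSL1 pass without replicate 4.

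Single markers of other cell types rose as well. PECAM1, an adhesion protein of endothelium and platelets, had 7.25, 6.24, 6.36 and 6.42 in fluvastatin cells, against 5.42, 5.66, 5.74 and 5.54 in control cells (0.98 ± 0.16, adjusted p = 0.000561), and its second probe set differed by 0.51. It was the only 1 of 12 endothelial and fibroblast markers that passed (8.33%, near the 6.71% of all genes that rose). The defining endothelial genes CDH5 (5.12 ± 0.11 in fluvastatin cells and 5.34 ± 0.06 in control cells) and VWF (4.72 ± 0.09 and 4.73 ± 0.09) lay under the lower quartile of all genes, 5.37, and did not pass (adjusted p = 0.10 and 0.94). Of 8 blood cell markers CD14 (0.52 ± 0.13) and LYZ (0.71 ± 0.18) rose (25%), calls lost without replicate 1, and LYZ also without replicate 4. LYZ averaged 5.09 in fluvastatin cells and 4.38 in control cells, both under that lower quartile. PTPRC, the common marker of white cells, averaged 3.46 ± 0.20 in fluvastatin cells and 3.53 ± 0.14 in control cells, and CD3E averaged 4.48 ± 0.14 and 4.61 ± 0.20 (SD, n = 4 each). Summarised as medians of levels, the 8 blood markers stood at 5.07 in fluvastatin cells and 4.88 in control cells. The 12 endothelial and fibroblast markers stood at 5.54 and 5.47. As lists they did not rise: the median differences over members were −0.06 and −0.005. The part of other cell types in the results was not tested. Of 8 markers of the line itself, S100A4 rose and AXL fell, both also without replicate 1.

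The second comparison asked which genes moved further between 12 h and 24 h of the same dose, as the effect at 24 h minus the effect at 12 h, each with its own control arrays. By limma 0 of 18417 genes passed (0%), and 2014 had an unadjusted p under 0.05 (10.9%). At 12 h against its control, 64 genes rose (0.348%) and 97 fell (0.527%), 161 in all (0.874%), but a gene called at 24 h and not at 12 h is not thereby shown to differ between the times. RHOB differed from control by 1.48 ± 0.21 at 12 h and 1.74 ± 0.21 at 24 h, a change of 0.26 ± 0.30 (adjusted p = 0.766), and KLF2 by 0.76 ± 0.11 and 0.66 ± 0.11, a change of −0.10 ± 0.16 (adjusted p = 0.831). AGR2 stood at 0.27 ± 0.28 at 12 h and 1.86 ± 0.28 at 24 h, and its change of 1.59 ± 0.40 did not pass (adjusted p = 0.196). At 12 h AGR2 had levels of 4.65, 5.40, 5.25 and 5.76 in fluvastatin cells and 4.46, 5.33, 4.84 and 5.33 in control cells, so that its arrays overlapped. GBP2 changed by 1.09 ± 0.21, ACSS2 by 0.62 ± 0.13 and ME1 by 0.44 ± 0.09 between the times, which did not pass either (adjusted p = 0.112 for each). Among the lists, sterol synthesis enzymes had medians of 0.14 at 12 h and 0.33 at 24 h with 0 and 6 risen members, and interferon-stimulated genes 0.11 and 0.29 with 0 and 17, while YAP and TAZ targets had −0.34 and −0.39 with 4 and 16 fallen. Without replicate 2, 1 gene passed in this difference, and with the block as a random effect 4.

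The third comparison set fluvastatin directly against 30 µM zoledronate at 24 h, on the same days, with no control array in the difference. Fluvastatin cells held more RNA of AGR2, SPDEF and AKR1C genes than zoledronate cells and less of DKK1, CCN1 and HSD17B2. Of 18417 genes, 792 were higher with fluvastatin (4.3%) and 540 lower (2.93%), 1332 in all (7.23%). In zoledronate cells against control cells 0 genes passed by limma (0%), and 866 had an unadjusted p under 0.05 (4.7%). The direct comparison gave 633 and 759 after centring each array on the named genes. AGR2 had levels of 4.80, 5.29, 5.86 and 5.86 in zoledronate cells, below all of its fluvastatin arrays given above, and was higher with fluvastatin by 1.75 ± 0.28. AKR1C2 was higher by 1.71 ± 0.24, AKR1C1 by 1.62 ± 0.21, SPDEF by 1.56 ± 0.22 and ANKRD22 by 1.45 ± 0.28. HSD17B2 had 6.31, 7.60, 7.46 and 7.003 in fluvastatin cells, against 7.45, 8.15, 8.25 and 7.96 in zoledronate cells, lower in each of the 4 pairs (−0.86 ± 0.10, adjusted p = 7.69e-05). DKK1 (−1.03 ± 0.21), CCN1 (−0.997 ± 0.24) and HHIP (−0.87 ± 0.18) were lower with fluvastatin too. SNORD13P1, a pseudogene of a small nucleolar RNA, had the lowest difference (−1.07 ± 0.30, adjusted p = 0.0318), at levels near the bottom of the scale: 1.81, 2.22, 2.33 and 1.91 in fluvastatin cells, against 3.89, 2.40, 2.94 and 3.32 in zoledronate cells. HMGCS1 differed by 0.55 ± 0.16 (adjusted p = 0.041) and FDPS by −0.04 ± 0.10 (adjusted p = 0.879). Of the lists, 12 of 24 YAP and TAZ targets and 12 of 25 MYC and ribosome genes were lower with fluvastatin, and 15 of 36 interferon-stimulated genes and 8 of 24 secretory genes were higher. These list counts were not taken without replicate 1, where 110 of all genes were higher with fluvastatin and 36 lower. Without replicate 1, 146 genes passed in all, with replicate 3 or 4 left out 646 or 712, and the calls of ANKRD22, DKK1, CCN1, HHIP, HMGCS1 and SNORD13P1 were lost without replicate 1. With the spread of only the arrays compared 0 genes passed, and 3452 had an unadjusted p under 0.05.

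**Figure D5:**
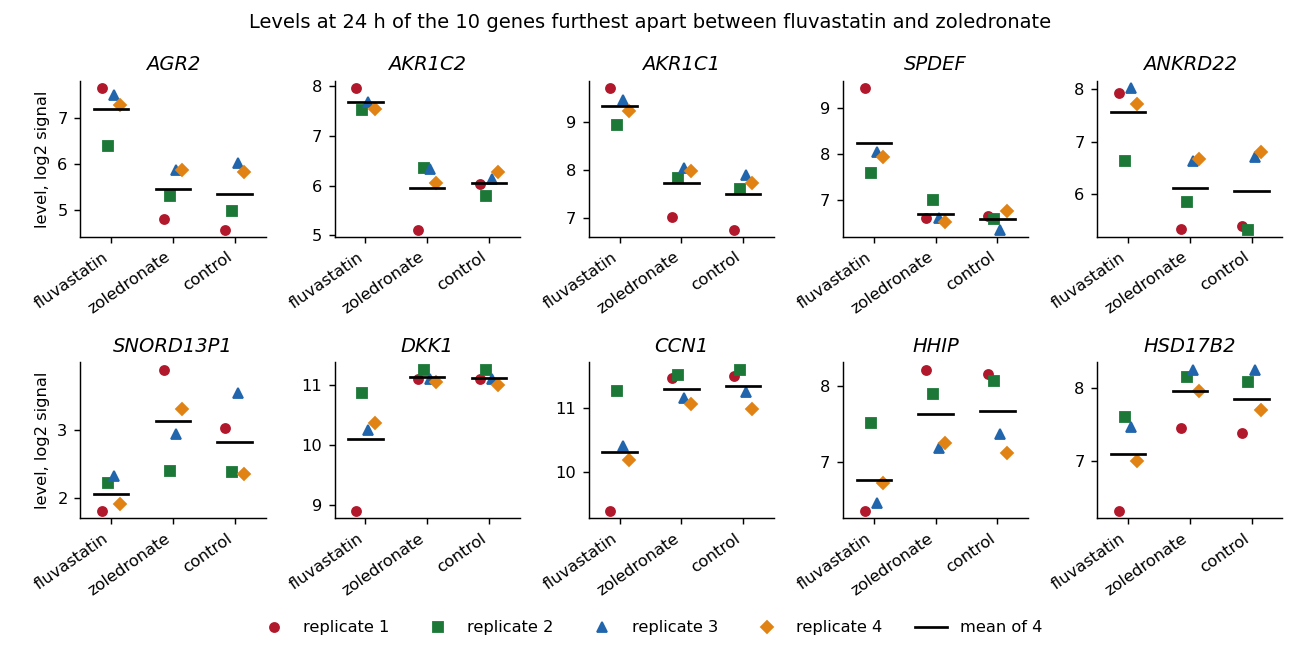
Levels (log2 signal) at 24 h in fluvastatin cells, zoledronate cells and control cells of the 5 genes highest (upper row) and the 5 lowest (lower row) in the direct comparison of the agents, with points for the 4 replicates and bars for their mean. For AKR1C1 the fluvastatin arrays lie between 8.95 and 9.72 and the zoledronate arrays between 7.02 and 8.05.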

How the data were processed

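RNA of MDA-MB-231 dishes was amplified, labelled with biotin and hybridised to Affymetrix arrays, per the labels' protocols. The authors deposited log2 values made with RMA in Affymetrix Power Tools 1.10.2, per the submitters' processing notes. The sources used here do not say whether both lots were normalised together, nor give a genome build or detection calls. RMA shrinks differences of dim probe sets, and the values hold no depth.

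Of 33297 probe sets, 19460 had 1 gene in the platform annotation, 1754 several and 12083 none listed, and 19429 matched RefSeq (GRCh38.p14). The brightest probe set stood for each of 769 genes with more than 1, which left 18417 genes and no filter on dim genes. One limma fit (3.58.1, R 4.3.3) of 40 arrays held 6 treated effects and 16 blocks of lot, time and replicate number, with 18 residual degrees of freedom, and gave 3 contrasts with Benjamini-Hochberg adjustment over all genes, two-sided. The fit was also run on simulated data in which each gene had the same spread in all arrays. That run could not test how the fit deals with a pair set apart, such as pair 1.

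The design text ties pairing to the day of measurement. Deviations from the group means of same-numbered fluvastatin and control arrays correlated with r = 0.27, 0.27, 0.38 and 0.44, across genes. Nothing else is said of how the independent replicates were grown, so p-values reach no further than these samples. They rest on the spread left within all 40 arrays of the fit, not on that of the 4 fluvastatin and control pairs alone. The members and the 36 gene lists (715 entries, 659 measured) were chosen with earlier results of these data known, and 1 list is not reported here. Named genes were the 12 largest called rises and falls that went 1 way in 4 of 4 pairs, up to 4 called members of each list by p, defining members that did not pass, the 5 largest of the other contrasts and a fixed set of pathway genes. Other list members are named to complete counts or as common readouts; their values were seen before they were chosen. Alternatives changed the block, arrays, normalization, dim filter, probe set rule, variance trend, weights and replicates. Promoters are the RefSeq tables' 250 bases before each start.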

Additional observations from a re-analysis of the deposited data

Results flagged for a closer look

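In 250 tests of 4 arrays each over the 125 named genes, 15 had 1 array set apart from the other 3 by Dixon's criterion, and chance alone gives about 1 in 20 groups. Fluvastatin arrays of replicate 1 stood apart for RHOC (10.79, others 10.17 to 10.18) and PLAT (11.64, others 11.29 to 11.32), which were higher, and BCL2 (7.15, others 7.47 to 7.52), which was lower. Fluvastatin replicate 2 was low for TOB1 (9.84, others 10.36 to 10.43), KLF6 (9.38, others 9.87 to 9.91) and H2BC12 (9.64, others 10.02 to 10.05), and fluvastatin replicate 3 for FOSL1 (8.95, others 9.33 to 9.39). Control replicate 1 was high for KLF2 (9.31, others 8.80 to 8.85), CDKN1A (7.55, others 7.22 to 7.25) and ODC1 (12.17, others 11.85 to 11.88). It was low for ACSS2 (8.38, others 8.63 to 8.64), DUSP4 (10.00, others 10.34 to 10.39) and ERAP2 (6.05, others 6.72 to 6.83). Control replicate 3 was high for MVK (8.31, others 8.09 to 8.13) and control replicate 4 low for TAP2 (9.16, others 9.51 to 9.56). Replicate 1 arrays made up 9 of the 15.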

How the results depend on the processing

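In the 24 h comparison with control, 1930 genes passed with the replicate block, 663 without the replicate block and 2 with only the 8 arrays compared, and leaving out replicates or single arrays gave between 299 and 2215. The other settings gave between 1584 and 2596. Without replicates 1, 2, 3 and 4 in turn 299, 1906, 1115 and 1102 passed. The difference between times had 0 calls, 4 with the block as random, 1 with lot I alone and 0 to 1 with replicates left out. Against zoledronate 1332 genes passed, 367 without the replicate block and 0 with only the arrays compared, and 146 to 1289 without a replicate. There 59.5% of the calls were higher, and 45.5% after centring on the named genes. Of 123 named genes that passed against control, 62 lost their calls without replicate 1, 47 without the block and 121 in the 8 arrays alone. There 0 changed direction, but the mean difference stays the same without the block or in the 8 arrays. A gene that goes 1 way in 4 of 4 pairs also keeps its sign without any 1 pair. Having only 4 pairs limits small differences, and dim genes are compressed.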
